A study of Mus musculus with 80 samples.

Results

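The mesenchymal, contractile and matrix genes are 45 genes picked by symbol for their known roles in cells that move, contract or lay down connective tissue. Earlier results of these data were known when they were picked. The 45 genes were followed across 12 RNA-seq tables of mouse embryonic stem (ES) cells, which list 37883 different symbols in all. All 45 are listed in 9 of the tables and 42 in each of the other 3, where Col6a1, Postn and Lox (Sall4 het and KO replicate 2) or Col3a1, Postn and Lox (mutant add-back replicate 2) are not listed. The members fall into 13 roles, from factors of the epithelial to mesenchymal transition (EMT) to collagens, annexins and protease inhibitors.

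The lines carry changes in Sall4 or Sall1, genes for zinc finger transcription factors of ES cells. Sall4 het cells are Sall4 flox/- and Sall4 KO cells are Sall4 delta/-, so that both groups carry a null allele. The mutant add-back and the wild-type add-back are Sall4 KO cells transfected with mutant or wild-type SALL4A, an isoform of the protein (KO + mutant and KO + WT in the plots). The double knockout (DKO) is Sall1-/-/Sall4-/- and has a wild-type line of its own. Sall1 het is Sall1 flox/- and Sall1 KO is Sall1 delta/-, and TT2 is a wild-type line. The Sall4 het, Sall4 KO and mutant add-back groups have 2 libraries each, and the other 6 groups have 1. The strain label is C57BL/6J for every replicate 1 and every single library but TT2, 129P2/OlaHsd (line E14.1) for every replicate 2, and (C57BL/6NCrlj x CBA/JNCrlj)F1 for TT2. The growth protocol, written for TT2, has LIF on gelatin and no feeder cells. It is not stated there how the other lines were kept, whether any line is 1 clone, or whether replicates were separate cultures, so p-values cover only the spread between these libraries.

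Mesenchymal cells hold together loosely, carry the intermediate filament vimentin and build a matrix of fibrillar collagens that lysyl oxidases crosslink. During an EMT, the factors of the SNAI, ZEB and TWIST families repress the epithelial cadherin Cdh1 while the neural cadherin Cdh2 and contractile proteins appear. ES cells are epithelium-like and are known for high Cdh1, and many matrix genes are typical of fibroblasts, a cell type on which ES cells are often grown.

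The values are deposited FPKM (replicate 1 and every single library) or RPKM (replicate 2), both reads or fragments per kilobase scaled to a library's mapped total, with no read depth given. ES markers were high in every library: the listed genes of a 9-gene list had a summed value of 3385 to 7046 (the Sall4 het, Sall4 KO and mutant add-back replicate 2 tables list 8, 8 and 7 of them), and Pou5f1, the core pluripotency factor, was at 1703 in TT2. The tables were normalized separately and differ in annotation, also within each add-back and KO pair, so a level set across tables carries this limit, and ranks among the 13103 genes listed in all 11 gene-level tables are given beside the main ones. RNA came from bulk cultures, in which fewer cells of a type and less RNA per cell cannot be told apart. Fbn1, encoding fibrillin, has 3 entries at the same locus in the Sall4 het and KO replicate 1 tables, and its summed values there (11.2 and 44.6, against at most 4.18 in the other libraries) are uncertain.

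Across the 12 libraries the members did not behave as a single group. Vim, the caveolin gene Cav1, the annexins and Pmp22 were higher in Sall4 KO than in Sall4 het in both replicates, and lower in the add-back libraries than in Sall4 KO. The fibrillar collagens separated the lines. They were high in the DKO and in its wild-type line alike and intermediate in both Sall1 libraries. They were low in all 7 libraries of the Sall4 lines, where Col5a2 and, as far as listed, Col3a1 were also highest in KO. EMT factors stayed at or under 6.99 in every library, and Cdh1 stayed high in all 11 gene-level libraries. In the fit across all genes no member passed an adjusted p of 0.05, so the differences below are given with their values and errors and not as calls.

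**Figure D1:**
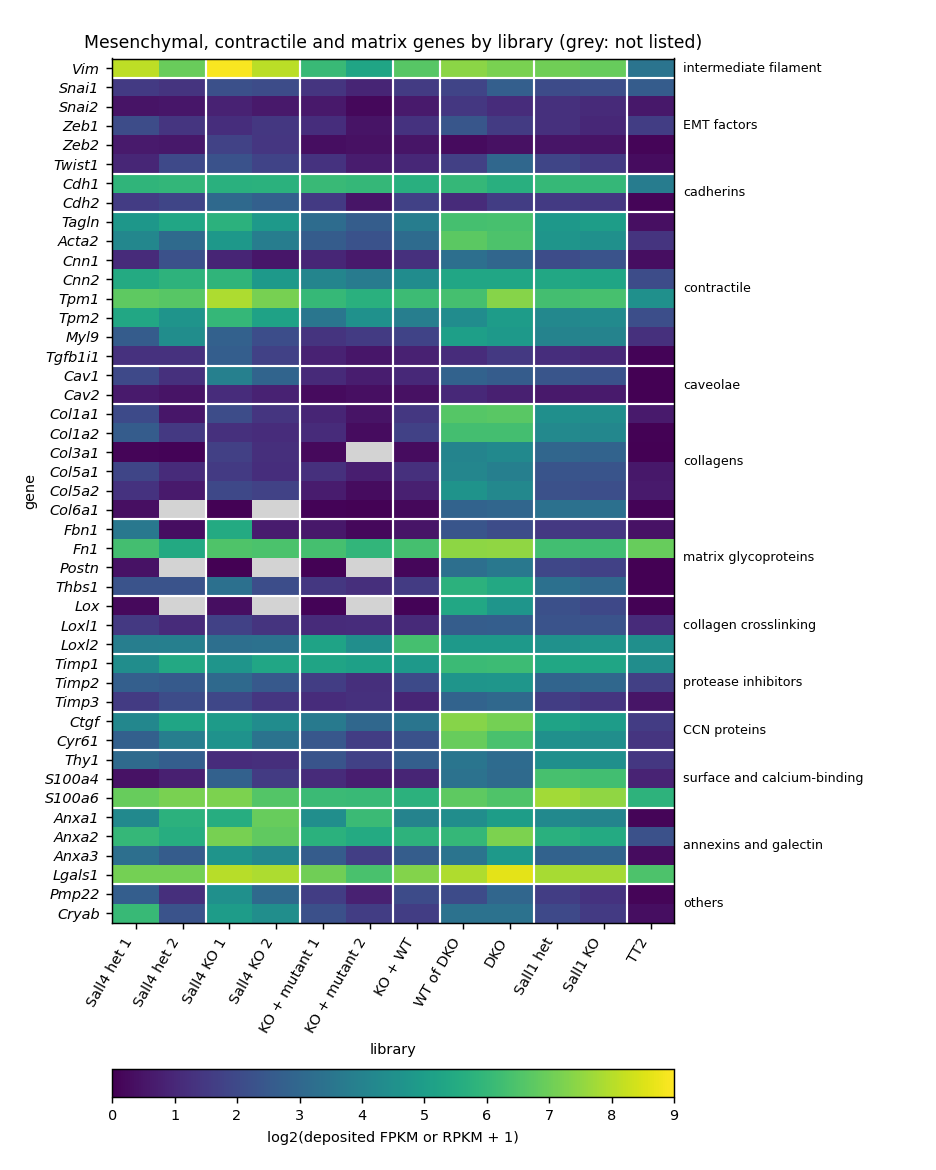
Heat map of log2(deposited FPKM or RPKM + 1) for the 45 members (vertical axis, grouped by role) in the 12 libraries (horizontal axis, with white lines between groups). Grey cells are not listed in that table. Col1a1 and Col1a2 are brightest in the DKO and its wild-type line (Col1a1 at 103 and 97.9) and dimmer in the Sall1 pair (21.6 and 20.1), Cdh1 is even across the 11 libraries before TT2, and the Vim row is brightest in Sall4 KO replicate 1 (484).

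The EMT factors, which act as transcription factors, had low values in every library, though some reached middle ranks. Over the 11 gene-level libraries Snai1, a repressor of Cdh1, reached at most 5.56 and Twist1, a basic helix-loop-helix factor, at most 6.99, both in the DKO. Zeb1 was highest in the wild type of the DKO (4.34), Zeb2 in Sall4 KO replicate 1 (2.44) and Snai2 in the wild type of the DKO (1.76). Among the 13103 ranked genes Twist1 and Snai1 were at percentiles of 50.7 and 45.5 in the DKO, and Zeb1 at 40.8 in its wild type. Zeb1 is a merged entry with a second name in the Sall4 het and KO replicate 1 tables.

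In the Sall4 libraries Snai1 was at 1.87 and 1.53 in Sall4 het (replicates 1 and 2), 3.54 and 3.28 in Sall4 KO, 1.59 and 0.9 with the mutant add-back and 1.98 with the wild-type add-back. The Sall4 KO values lie above all the others. On the log2(scaled value + 1) scale KO exceeded het by 0.67 ± 0.21 (limma adjusted p = 0.449), and the mutant add-back was lower than KO (-0.79 ± 0.21, adjusted p = 0.421). Here and below ± is the SE of the limma fit. Its spread for a gene is estimated over the 6 libraries of the 3 groups (2 per group) and drawn towards a trend over all fitted genes. Zeb2, another repressor of Cdh1, had the same order at lower values: 0.582 and 0.493 in het, 2.44 and 1.67 in KO, 0.257 and 0.319 with the mutant add-back and 0.417 with the wild-type add-back. Its fitted changes were 0.93 ± 0.22 and -1.11 ± 0.22 (adjusted p of 0.368 and 0.359). Zeb2 passed the filter of the fit (1 or more in at least 2 of the 6 libraries) only through the KO libraries. Since it is high there, its fit is no support for this order. Twist1 did not hold this order: het was at 0.965 and 3, KO at 3.82 and 2.51, the mutant add-back at 1.48 and 0.6, and the wild-type add-back at 1.02. Its het and KO libraries overlap, and without Sall4 het replicate 1 the KO against het change was -0.30 in place of 0.51. Zeb1 was lower in KO in replicate 1 (1.28 against 3.28) but not in replicate 2 (1.77 against 1.63).

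Cdh1, the cadherin of epithelia and ES cells, lay between 50.4 and 68 in all 11 gene-level libraries and at 12.6 in TT2, whose table is at transcript level. It was at 58.9 and 61 in Sall4 het, 50.9 and 52.7 in Sall4 KO, 68 and 63.3 with the mutant add-back and 50.4 with the wild-type add-back. KO lay below het in both replicates, by a small margin (-0.24 ± 0.22, adjusted p = 0.812). Against KO, the mutant add-back was higher by 0.64 ± 0.22 (adjusted p = 0.481), while the wild-type add-back was at the level of KO (pair log2 ratio of 0.22). Cdh2 was much lower than Cdh1 and was highest in KO: 2 and 2.64 in het, 7.46 and 5.79 in KO, 1.86 and 0.424 with the mutant add-back and 2.35 with the wild-type add-back. The 2 KO libraries were the highest of all 11 for Cdh2, with fitted changes of 1.15 ± 0.37 against het and -1.71 ± 0.37 in the mutant add-back against KO (adjusted p of 0.457 and 0.367).

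Vim, on chromosome 2 (mm9 chr2:13495937-13504453), encodes vimentin and was among the most abundant members. It was at 272 and 121 in Sall4 het, 484 and 265 in Sall4 KO, 68.3 and 37.9 with the mutant add-back and 99.9 with the wild-type add-back. Within each replicate KO was the highest and the mutant add-back the lowest, although het replicate 1 (FPKM) and KO replicate 2 (RPKM) overlap across units. KO against het gave 0.94 ± 0.26 (adjusted p = 0.41), and the mutant add-back against KO gave -2.48 ± 0.26 (adjusted p = 0.339).

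Cav1, encoding the coat protein of caveolae (mm9 chr6:17256334-17291328), was at 2.93 and 1.37 in Sall4 het, 14.3 and 6.5 in Sall4 KO, 1.1 and 0.661 with the mutant add-back and 1.07 with the wild-type add-back. Both KO libraries lie above every other Sall4 library, and the add-back libraries lie below het. The fitted changes were 1.76 ± 0.27 (adjusted p = 0.298) and -2.32 ± 0.27 (adjusted p = 0.339). Cav2, the partner of Cav1, had the same order below 2: 0.578 and 0.393, 1.2 and 0.796, 0.193 and 0.301, and 0.313 in the same groups. It was not fitted, since too few libraries reached 1.

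The annexins, which bind membranes in the presence of calcium, had 3 members on the list. Anxa2 was at 62.9 and 48.3 in Sall4 het, 140 and 110 in Sall4 KO, 52.5 and 44.7 with the mutant add-back and 55.3 with the wild-type add-back. Anxa3 (mm9 chr5:97222403-97274987) was at 8.83 and 5.13, 24.3 and 17.5, 5.09 and 2.22, and 5.25 in these groups. For both genes the KO libraries stood above all other Sall4 libraries, with KO against het changes of 1.12 ± 0.23 and 1.43 ± 0.22 (adjusted p of 0.353 and 0.298) and the mutant add-back against KO changes of -1.04 ± 0.23 and -2.02 ± 0.22 (adjusted p of 0.375 and 0.339). Anxa1 differed between replicates as well as groups, at 18.4 and 53.9 in het, 47.9 and 118 in KO, 20.9 and 70 with the mutant add-back and 15.3 with the wild-type add-back. Within replicates KO again exceeded het (1.18 ± 0.25, adjusted p = 0.359).

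Lgals1, encoding a galactoside-binding lectin, was at 137 and 139 in het, 260 and 238 in KO, 130 and 85.1 with the mutant add-back and 158 with the wild-type add-back. KO lay above the rest, with changes of 0.80 ± 0.29 against het and -0.92 ± 0.29 in the mutant add-back against KO (adjusted p of 0.507 and 0.471). Pmp22, a peripheral myelin membrane protein gene also used by many other cells, was at 5.48 and 1.31 in het, 21.9 and 7.35 in KO, 2.08 and 0.789 with the mutant add-back and 3.15 with the wild-type add-back. Its changes were 1.79 ± 0.27 and -2.34 ± 0.27 (adjusted p of 0.298 and 0.339), and both KO libraries lie above the rest. Cryab, a small heat shock protein gene, was at 66.5 and 3.96 in het, 30.4 and 20.7 in KO, 3.6 and 2.07 with the mutant add-back and 2.11 with the wild-type add-back. Its KO against het ratios point in opposite directions in the replicates (-1.06 and 2.00), while both add-back groups were below both KO libraries.

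**Figure D2:**
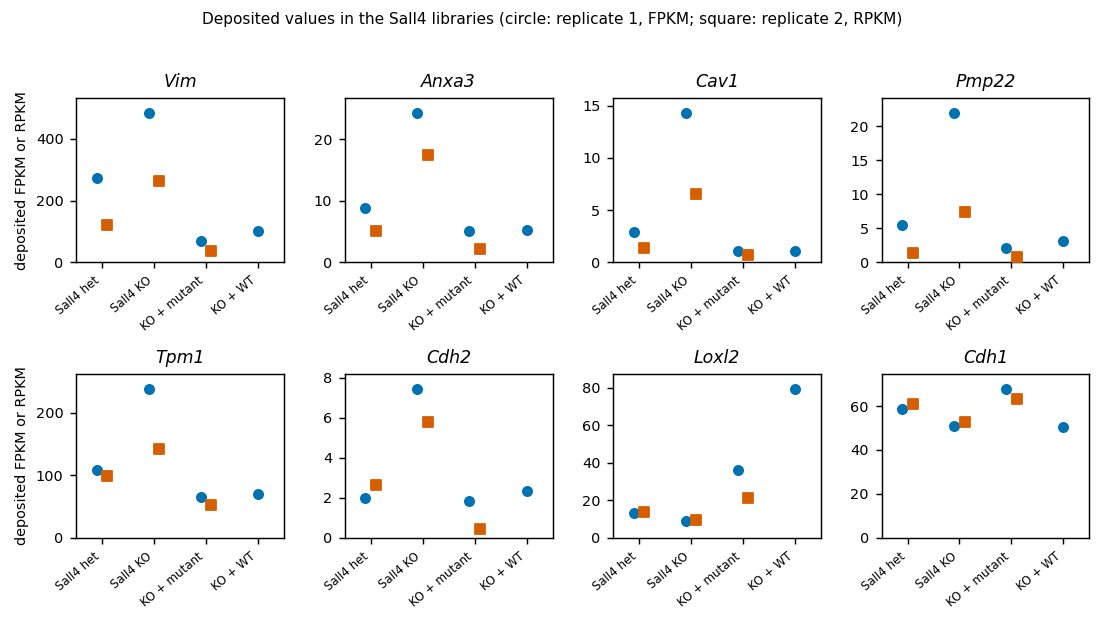
Deposited values (vertical axes from 0, FPKM for replicate 1 and RPKM for replicate 2) of 8 members in the Sall4 libraries, with 1 point per library. For Anxa3, Cav1, Pmp22, Tpm1 and Cdh2 both Sall4 KO points lie above all the others, Loxl2 is highest in the wild-type add-back (79.5), and Cdh1 spans only 50.4 to 68.

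Contractile members were split. Tpm1, encoding a tropomyosin that lies along actin filaments, was at 108 and 99.2 in Sall4 het, 239 and 142 in Sall4 KO, 65 and 52 with the mutant add-back and 70.3 with the wild-type add-back. Its KO libraries were the highest and its add-back libraries the lowest, with changes of 0.79 ± 0.30 and -1.34 ± 0.30 (adjusted p of 0.514 and 0.378). Tagln, the actin-binding transgelin of smooth muscle, was at 26.3 and 38.8, 53.8 and 28.4, 8.04 and 5.27, and 13 in the same groups. Its KO libraries therefore do not differ from het beyond their spread (0.25 ± 0.42, adjusted p = 0.931), but the mutant add-back was lower than KO in both replicates (-2.13 ± 0.42, adjusted p = 0.359).

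Acta2, the smooth muscle actin gene, was at 16.8 and 7.71 in het, 26.6 and 13 in KO, 5.11 and 3.85 with the mutant add-back and 7.75 with the wild-type add-back. Its het and KO libraries overlap across units, but KO was above het within each replicate (0.62 ± 0.28, adjusted p = 0.588). The KO and mutant add-back libraries of Acta2 do not overlap (-1.58 ± 0.28, adjusted p = 0.359). Neither labels nor headers say how reads shared with the near-identical actin genes were counted, so the level of Acta2 is uncertain. Cnn2, a calponin gene, was at 44.8 and 54.8 in het, 57.6 and 28.2 in KO, 16.2 and 12.3 with the mutant add-back and 19.6 with the wild-type add-back. Its KO values straddle those of het, and all 3 add-back values lie below them. Of the other contractile members, Tpm2, Myl9 and Tgfb1i1 were lower in the mutant add-back than in KO in both replicates. Cnn1 was low throughout, and lower in KO (0.894 and 0.462) than in het (1.18 and 3.73) in both replicates. With the mutant add-back Cnn1 was at 0.955 and 0.554, and with the wild-type add-back at 1.35. Myl9, a myosin light chain gene, was lower in KO than in het in replicate 2 (3.41 against 20.2) and not in replicate 1 (5.97 against 5.18).

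Contractile genes are often controlled through the CArG box, the site of serum response factor. The upstream sequences of the 2 members whose windows hold an exact match of this motif are therefore shown. That of Cyr61, a known target of TEAD factors, is given for comparison. RefSeq promoter windows (build GRCm38.p6, 250 bases before to 50 after the start site) were given for 27 of the 45 members and searched on both strands. Only exact matches were counted (CCWWWWWWGG for the CArG box, with W for A or T). Near matches, which the Acta2 window holds, were not counted, and Tagln and Tgfb1i1 had no window. The sequences run 5′ to 3′ on the gene's strand and end at the base before the start site, at chr10:79988350-79988599 (plus strand) for Cnn2, chr2:156775214-156775463 (plus strand) for Myl9 and chr3:145649986-145650235 (minus strand) for Cyr61. Capitals mark the CArG box in Cnn2 and Myl9 and, in Cyr61, the TEAD hexamer GGAATG read on the other strand.
Cnn2: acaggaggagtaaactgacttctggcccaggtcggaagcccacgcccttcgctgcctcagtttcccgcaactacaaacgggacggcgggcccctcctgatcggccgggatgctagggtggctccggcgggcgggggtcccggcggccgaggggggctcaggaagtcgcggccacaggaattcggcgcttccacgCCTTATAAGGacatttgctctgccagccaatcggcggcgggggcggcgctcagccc
Myl9: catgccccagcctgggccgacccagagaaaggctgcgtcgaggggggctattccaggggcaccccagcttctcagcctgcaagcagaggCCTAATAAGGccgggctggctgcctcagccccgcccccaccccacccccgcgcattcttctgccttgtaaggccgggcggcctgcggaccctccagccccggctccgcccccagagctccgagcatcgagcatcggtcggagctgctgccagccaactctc
Cyr61: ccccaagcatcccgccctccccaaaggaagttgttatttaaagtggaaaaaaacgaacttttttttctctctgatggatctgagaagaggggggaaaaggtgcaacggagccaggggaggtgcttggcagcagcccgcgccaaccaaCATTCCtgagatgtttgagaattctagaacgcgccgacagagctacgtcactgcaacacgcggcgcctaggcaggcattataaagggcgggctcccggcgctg
The CArG box starts 56 bases before the start site in Cnn2 and 161 before it in Myl9, and 1.63% of all 32851 windows hold one. GGAATG was in the windows of 8 members (Acta2, Anxa1, Col3a1, Cyr61, Pmp22, Timp1, Tpm1 and Zeb2) and in 14.7% of all windows. CACCTG, the E-box that SNAI and ZEB factors bind, was in the windows of 5 members (Cav1, Myl9, Snai1, Timp2 and Timp3) and in 20.2% of all windows. Zeb2, Pmp22, Cav1 and Postn have several windows each, and the matches of Zeb2, Pmp22 and Cav1 are not in every window. Counts of members are therefore not on the same scale as shares of windows. A match of 1 of these motifs is never a match of another, and a match is only a description of the window. The 2 members with an exact CArG match were lower in the mutant add-back than in KO, like 5 other contractile members, while Cnn1 was not. Whether those 5 have a CArG box of another form or at another place was not tested.

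Collagens were low in the Sall4 libraries, where no collagen member exceeded 5.21. Col1a1, a chain of type I collagen (mm9 chr11:94797583-94813170), was at 3.02 and 0.471 in Sall4 het, 3.28 and 1.65 in Sall4 KO, 0.894 and 0.395 with the mutant add-back and 1.72 with the wild-type add-back. Its het and KO libraries overlap across units, and within replicates KO was above het by log2 ratios of 0.12 and 0.76 (0.44 ± 0.28, adjusted p = 0.716). Col5a2, a chain of type V collagen, was at 1.47 and 0.564, 2.87 and 2.46, 0.598 and 0.217, and 0.729 in these groups. Both KO libraries stood above the rest for Col5a2, with changes of 0.85 ± 0.20 and -1.25 ± 0.20 (adjusted p of 0.368 and 0.359). Like Zeb2, Col5a2 would not have passed the filter of the fit without the KO libraries. Col3a1 had the same order at low values, at 0.0786 and 0.0614 in het and 2.25 and 1.3 in KO. It was at 0.158 in mutant add-back replicate 1 and 0.244 with the wild-type add-back. Since mutant add-back replicate 2 does not list it, it was not fitted. Col1a2, the other type I chain, went the other way from het to KO, at 5.21 and 1.79 in het and 1.39 and 1.21 in KO (-0.86 ± 0.29, adjusted p = 0.47).

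Among the matrix glycoproteins, Fn1, encoding fibronectin, was abundant throughout: 77.8 and 43.1 in het, 91.9 and 87.5 in KO, 81 and 59.3 with the mutant add-back and 80.2 with the wild-type add-back. KO lay above het by 0.58 ± 0.26 (adjusted p = 0.594), and the mutant add-back did not differ from KO beyond the spread (-0.06 ± 0.26, adjusted p = 0.945). Thbs1, encoding thrombospondin, was at 3.88 and 3.89 in het, 9.09 and 3.41 in KO, 1.72 and 1.31 with the mutant add-back and 1.98 with the wild-type add-back. It was higher in KO in replicate 1 only, and lower in the add-back libraries than in any het or KO library.

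Loxl2, a lysyl oxidase that crosslinks collagen (mm9 chr14:70009282-70095641), ran against most members. It was at 13.3 and 13.9 in Sall4 het, 8.76 and 9.28 in Sall4 KO, 36.2 and 21 with the mutant add-back and 79.5 with the wild-type add-back. KO was the lowest group and the add-back libraries the highest (-0.58 ± 0.29 for KO against het and 1.81 ± 0.29 for the mutant add-back against KO, adjusted p of 0.628 and 0.359). Loxl1, another lysyl oxidase, lay between 1.1 and 2.32 in all 7 Sall4 libraries.

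The protease inhibitors Timp1 and Timp2 limit matrix breakdown. Timp1 was at 20.3 and 42 in het, 25.1 and 39.5 in KO, 37.2 and 33.5 with the mutant add-back and 27.6 with the wild-type add-back, with no order that held in both replicates for KO against het. Timp2 was at 5.64 and 4.86, 7.46 and 4.74, 2.11 and 1.32, and 3.1 in these groups, and was lower in each add-back library than in any other (the mutant add-back against KO, -1.15 ± 0.23, adjusted p = 0.359). Timp3 lay between 0.922 and 3.23 in the 7 Sall4 libraries.

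The secreted CCN proteins Ctgf and Cyr61 are known targets of YAP and TEAD. Ctgf was at 16.8 and 38.3 in het, 30 and 20 in KO, 12.2 and 7.09 with the mutant add-back and 10.4 with the wild-type add-back. Cyr61, whose upstream sequence is shown above, was at 5.79 and 13.3, 23.1 and 9.89, 4.39 and 2.1, and 3.85. For both genes KO was above het in replicate 1 and below it in replicate 2 (log2 changes of 0.84 and -1.01 for Ctgf, and 1.86 and -0.50 for Cyr61), and every add-back library was below both KO libraries.

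Among the surface and calcium-binding members, Thy1, a surface glycoprotein of fibroblasts and neurons, was lower in KO. It was at 7.54 and 5.5 in het, 1.23 and 1.33 in KO, 4.03 and 2.36 with the mutant add-back and 5.6 with the wild-type add-back, so that both KO libraries were the lowest of all 7 (-1.70 ± 0.24, adjusted p = 0.298). The mutant add-back exceeded KO by 1.06 ± 0.24 (adjusted p = 0.392). S100a4, often used as a fibroblast marker, was at 0.363 and 0.731 in het, 5.95 and 1.97 in KO, 1.17 and 0.702 with the mutant add-back and 0.885 with the wild-type add-back. Its KO libraries were the highest of the 7 (1.50 ± 0.42, adjusted p = 0.41). S100a4 too would not have passed the filter of the fit without the KO libraries. S100a6 was at 120 and 145 in het, 149 and 96.3 in KO, 68.5 and 67.9 with the mutant add-back and 54 with the wild-type add-back, with het and KO overlapping.

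Counted over the members, the fit covers 39 of the 41 that are listed in all 6 libraries of the 3 Sall4 groups with replicates. For KO against het, 0 members and 0 of 11637 genes passed an adjusted p of 0.05 (0% of genes), and 14 members were higher (Vim, Snai1, Zeb2, Cdh2, Tpm1, Tgfb1i1, Cav1, Col5a2, S100a4, all 3 annexins, Lgals1 and Pmp22) and 2 lower (Col1a2 and Thy1) at an unadjusted p under 0.05. Over all genes 4.41% were higher and 5.21% lower at that level, 1119 genes in all. Among the 14, Zeb2, Col5a2 and S100a4 would not have passed the filter of the fit without the KO libraries, where they are high. The median log2 change over the 39 was 0.51, beside 0.00 over all genes, with 27 above 0 and 12 below. Since members were chosen with earlier results of these data known, comparisons with all genes here and below are descriptions only. Without Sall4 KO replicate 1 the members' median was 0.10. Both KO libraries lay above both het libraries, after scaling, for 13 members (18.8% of all genes) and below them for 6 (18.2%). With the scaling of the fit, Cav1, Anxa2, Anxa3 and Pmp22 were more than 2-fold higher in both replicates, as 0.825% of genes were. Thy1 was more than 2-fold lower in both, as 1.17% were. Anxa1 fell just short there (log2 ratios of 1.37 and 0.99) but passed when each pair was scaled by itself (1.34 and 1.06).

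For the mutant add-back against KO, again 0 members and 0 genes passed the adjusted test (0%). At an unadjusted p under 0.05, 21 members were lower (4.68% of all genes) and 3, Cdh1, Loxl2 and Thy1, were higher (5.09%), out of 1137 genes at that level. Among the 21, Zeb2, Col1a1 and Col5a2 would not have passed the filter of the fit without the KO libraries. The median log2 change was -1.04 over the 39, beside -0.02 over all genes, with 34 below 0 and 5 above. After scaling, both mutant add-back libraries lay below both KO libraries for 26 members (21.7% of all genes) and above them for 4 (22.8%). With the scaling of the fit, 13 members were more than 2-fold lower in both replicates (0.679% of genes). Loxl2 alone was more than 2-fold higher in both (1.37% of genes). The 2 comparisons share the KO libraries, so their values for a gene are not independent. The count of calls changed when a mutant add-back library was left out. Such a fit leaves that group with 1 library and no spread of its own, so its calls are not given.

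Single pairs of libraries have no test, and ratios in them are log2 ratios of the scaled value + 1, counted where either library had a value of at least 5. In KO against het replicate 1, 13 of the 29 members past that minimum were more than 2-fold higher, as 4.07% of genes were, and 3 (Col1a2, Thy1 and Cryab) were lower, as 4.51% were. The median over all 45 was 0.63. In replicate 2, 7 of 23 were higher (5.74% of genes) and 2, Myl9 and Thy1, lower (7.8% of genes), and the median over the 42 listed was 0.35. S100a4 had the largest ratio in replicate 1 (2.36) and Cryab in replicate 2 (2.08).

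Most members were lower in the add-back libraries than in KO. The wild-type add-back against KO replicate 1 had 20 of 28 members more than 2-fold lower (14.1% of genes) and Loxl2 and Thy1 more than 2-fold higher (8.55% of genes), with a median of -1.09 over all 45. The mutant add-back against KO had 19 of 27 lower (13.3% of genes) and Loxl2 higher (7.51% of genes) in replicate 1, and 13 of 21 lower (2.06% of genes) and Loxl2 higher (14.5% of genes) in replicate 2. In replicate 2 the median over the 41 listed members was -0.85. Both add-back libraries of replicate 1 were set against the same KO library, and the annotation differs within each of these pairs.

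Set against each other, the add-back libraries of replicate 1 were close. The wild-type add-back against the mutant add-back, a comparison added after seeing the data, gave ratios from -0.60 (Cryab) to 1.07 (Loxl2) with a median of 0.10. Loxl2 was the only 1 of the 17 members past the minimum that was more than 2-fold higher (2.16% of genes), and 0 were lower (1.24% of genes). With 1 wild-type add-back library, a difference between wild-type and mutant SALL4A cannot be tested.

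**Figure D3:**
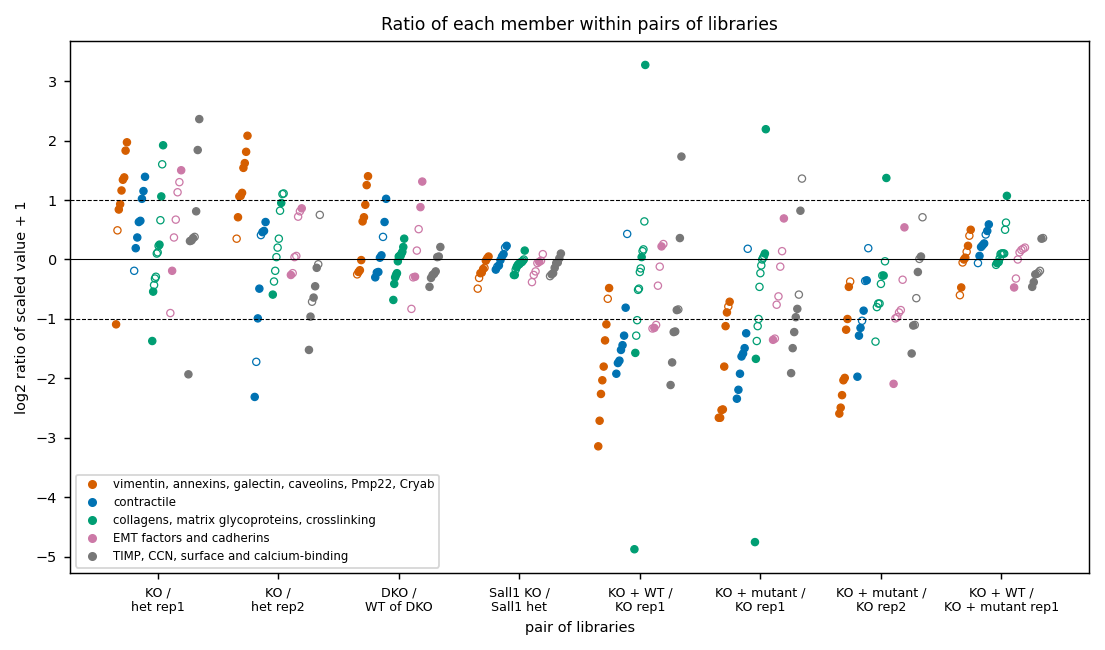
Log2 ratio of the scaled value + 1 (vertical axis, dashed lines at 2-fold) for each listed member in 8 pairs of libraries (horizontal axis), coloured by role. Filled points have a value of at least 5 in either library, open points do not. The points of the Sall1 pair stay between -0.49 and 0.23, the lowest of the DKO pair is -0.83 (Zeb1), and most points of the add-back and KO pairs lie below 0.

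Between the DKO and its wild-type line the members were mostly alike, with a median log2 ratio of 0.04 over all 45. Of the 38 members past the minimum, 4 were more than 2-fold higher in the DKO (4.83% of genes) and 0 lower (3.67% of genes). They were Anxa3 (27.7 against 10.1), Twist1 (6.99 against 2.26, log2 ratio 1.31), Anxa2 (149 against 63.2, 1.25) and Tpm1 (162 against 80.8, 1.02). Pmp22 (0.92), Snai1 (0.88), Lgals1 (0.71), Anxa1 (0.64) and Tpm2 (0.63) came next, all under 2-fold. Vim and Cav1 did not share this direction: Vim was at 146 in the DKO and 172 in its wild type (-0.21), and Cav1 at 5.17 and 6.06 (-0.18). Cdh1 was at 50.6 and 63.

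Side by side with the Sall4 pairs, 23 of the 42 members listed in all 3 pairs were above 0 in both KO against het replicates, and 15 of these 23 were also above 0 in the DKO pair. Of the other 19, 7 were. Over all genes past the minimum in these pairs, 60.6% of those above 0 in both KO replicates were above 0 in the DKO pair, and 48.2% of all genes were.

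In the Sall1 pair 0 of 26 members past the minimum were more than 2-fold higher (0.624% of genes) or lower (0.722% of genes). The 45 ratios ran from -0.49 (Cryab, 1.87 against 3.01) to 0.23 (Tagln, 31.5 against 26.6), with a median of -0.08. Vim was at 131 in Sall1 het and 118 in Sall1 KO, Cdh1 at 63.9 and 62.2, and Tpm1 at 78.9 and 82.2. With 1 library on each side, no spread between replicates is known for these pairs or for the DKO pair.

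The collagen members other than Col6a1 were highest in the DKO pair. Col1a1 was at 97.9 in the wild type of the DKO and 103 in the DKO, 21.6 in Sall1 het and 20.1 in Sall1 KO, and 0.561 in TT2. Among the 13103 genes its percentile rank was 93.7 and 94.1 in the DKO pair, 76.1 and 74.6 in the Sall1 pair, and 7.06 to 31.6 in the 7 Sall4 libraries. Col1a2 followed the same order, with 77.9 and 79.2, 18 and 17, and 0.0368 in TT2. For Col5a2 the values were 23.8 and 17.4 in the DKO pair, 3.7 and 3.46 in the Sall1 pair and 0.576 in TT2. Within the DKO pair all 6 collagen ratios lay between -0.41 and 0.21, and within the Sall1 pair between -0.13 and -0.02. In Sall4 KO against het they ran wider, from -1.37 to 1.60 in replicate 1, where the values are low. Col6a1, a chain of the microfibrillar type VI collagen, was higher in the Sall1 pair (9.31 and 9.04) than in the DKO pair (6.22 and 6.78).

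Other matrix and contractile members were also highest in the DKO pair. Lox, a lysyl oxidase, was at 41.6 in the wild type of the DKO, 25.1 in the DKO, 3.61 and 2.85 in the Sall1 pair and at most 0.263 in the Sall4 libraries that list it. Postn, encoding periostin, was at 8.65 and 11.1, 2.75 and 2.34, and at most 0.352. Thbs1 was at 53.7 and 42.6 in the DKO pair, 8.94 and 7.29 in the Sall1 pair and 0.0205 in TT2. Acta2 was at 105 and 88.7, 24.8 and 22.1, and 1.55, and Ctgf at 162 and 139, 36.1 and 30.3, and 2.06. Cyr61 was at 119 and 85, 21.9 and 21, and 1.65. Tagln was at 80.3 and 82.7 in the DKO pair, 26.6 in Sall1 het and 0.279 in TT2. In the Sall1 pair Lox and Postn lay above every Sall4 library that lists them, whereas Thbs1, Acta2, Ctgf, Cyr61 and Tagln lay within the range of the Sall4 libraries.

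Some members ranked the lines in another way. S100a4 was highest in the Sall1 pair, at 83 in het and 75.7 in KO (percentiles of 92.8 and 91.9), against 9.53 and 7.65 in the DKO pair and at most 5.95 in the Sall4 libraries. S100a6 (212 and 180) and Thy1 (21.1 and 21.5) were also highest there, and were at 109 and 90.5 and at 10.2 and 7.88 in the DKO pair. Fn1 was at 176 and 180 in the DKO pair, 77.3 and 75 in the Sall1 pair and 120 in TT2, the highest value of any member in TT2. Cnn2 was even, at 39 and 39.2 in the DKO pair and 40.9 and 38.2 in the Sall1 pair. Loxl2 was at 28.3 and 27.4, 22.4 and 25, and 21.6 in TT2. Timp1 (69.7 and 70.5, 39.9 and 38.6) and Timp2 (24.9 and 25.3, 6.51 and 7.07) were highest in the DKO pair, and in the Sall1 pair lay within the range of the Sall4 libraries.

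The remaining members that were given by library in the Sall4 lines had these values elsewhere. Anxa2 was at 51.4 in Sall1 het and 43.8 in Sall1 KO, Anxa1 at 20.1 and 31.3 in the DKO pair and 18.2 and 15.5 in the Sall1 pair, and Lgals1 at 243, 391, 224 and 221 in these 4 libraries. Cdh2 lay between 1.17 and 2.07 there, Loxl1 between 3.91 and 5.44, and Cryab was at 9.61 in the wild type of the DKO and 9.39 in the DKO. TT2 had 20 of the 45 members at 1 or more, the fewest of any library, beside 42 to 44 in the DKO and Sall1 pairs and 24 to 40 in the Sall4 libraries. In TT2, Vim was at 10.1, Lgals1 at 88.1, Tpm1 at 22.1, S100a6 at 55.3, Timp1 at 20.5 and Snai1 at 5.11, and Cav2 was listed at 0. Since its table is at transcript level, no ratio was formed with it.

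Summed over a list, fibroblast markers were higher in the DKO and Sall1 pairs than in the Sall4 libraries, though not every gene was. The listed genes of a 16-gene fibroblast list had a summed value of 102 and 114 in the wild type of the DKO and the DKO, 62.5 and 58.7 in Sall1 het and KO, 20.2 to 34.7 in the 7 Sall4 libraries and 14.8 in TT2. Of these 16, 9 and 10 were at 1 or more in the DKO pair and 12 and 11 in the Sall1 pair, and 4 to 6 in the Sall4 libraries. The Sall4 het, Sall4 KO and mutant add-back replicate 2 tables list 10, 10 and 9 of the 16, and 3, 3 and 1 of the 6 defining genes below, so their sums rest on fewer genes. Fbln2, encoding a matrix fibulin, led the list at 40.8 and 39.8 in the DKO pair and 18.4 and 18 in the Sall1 pair. Col12a1 was at 11.8 and 9.2 in the DKO pair, 1.22 and 1.07 in the Sall1 pair and at most 0.784 in the Sall4 libraries. Other listed genes did not follow the sum. Ddr2 was at 2.53 and 2.57 in Sall4 het, but at 1.85 and 0.863 in the wild type of the DKO and the DKO. Mfap5 was highest in Sall4 het replicate 2 (5.67). In the Sall1 pair Fbln1 and Mmp2 lay within the range of the Sall4 libraries. The 6 defining genes (Dcn, Lum, Pdgfra, Pdgfrb, Prrx1 and Dpt) were low by comparison: they summed to 6.82 and 8.07 in the DKO pair, 7.74 and 6.51 in the Sall1 pair and 0.252 to 1.79 in the Sall4 libraries, where 0 of the listed ones reached 1. Their sum was about as high in the Sall1 pair as in the DKO pair, unlike that of the 16 genes. How either sum relates to the collagen levels was not tested. Dpt was listed at 0 in all 4 Sall4-line tables in FPKM, and Dcn in Sall4 het replicate 1 and the mutant add-back replicate 1.

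**Figure D4:**
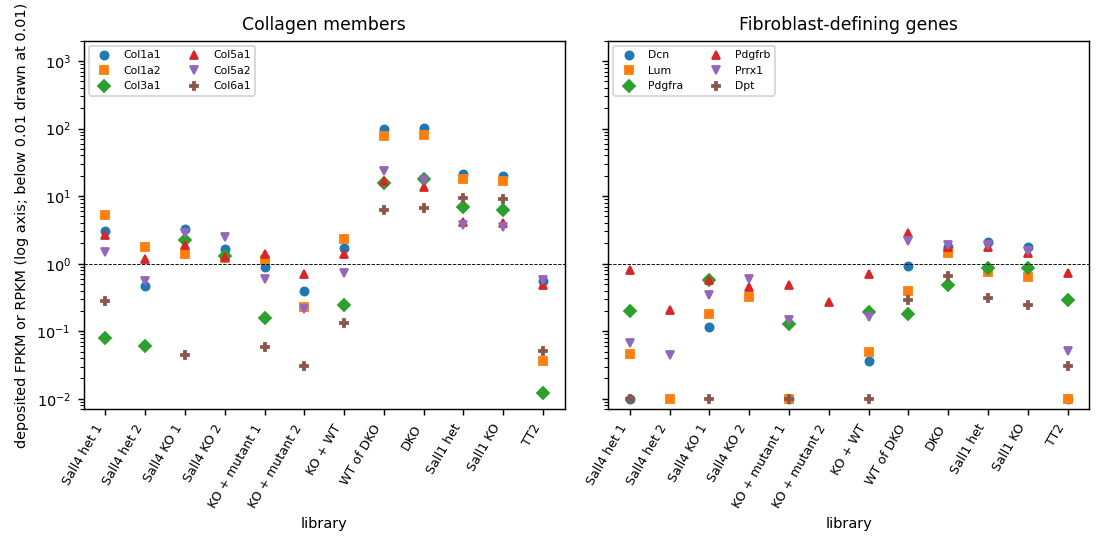
Deposited FPKM or RPKM (shared vertical log axis, values below 0.01 drawn at 0.01, genes not listed left out) of the 6 collagen members (left) and the 6 fibroblast-defining genes (right) in the 12 libraries, with a dashed line at 1. Collagens reach 103 in the DKO pair and stay at or under 5.21 in the Sall4 libraries, while no fibroblast-defining gene exceeds 2.83 in any library.

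Of an 8-gene muscle list, the smooth muscle actin gene Actg2 (19.5 and 13.8) and Des, encoding desmin (12.1 and 13.1), made up most of the sum in the DKO pair. The listed genes summed to 36.2 and 33.4 there and to 3.72 to 10.7 in the other 10 libraries, of which the replicate 2 tables list 3, 3 and 5 of the 8 (Actg2 is not listed in Sall4 het and KO replicate 2). Other muscle genes were low in the DKO pair, with Myh11 at 0.352 and 0.311 and Tnnt2 at 0.153 and 0.249. Epithelial junction genes, a list of 12, summed to 105 in the wild type of the DKO and 538 in the DKO, with Epcam at 40.9 and 259 and Krt18 at 4.49 and 73.2, while the collagens were at the same level in both. In Sall4 KO against het, 7 of the 8 fitted genes of a primitive and parietal endoderm list were above 0, with a median log2 change of 0.82 beside the 0.51 of the members, and the 3 fitted genes of a 7-gene trophoblast list were above 0 with a median of 0.99. The 8 endoderm-list genes are Gata4, Dab2, Col4a1, Col4a2, Lama1, Lamb1, Lamc1 and Sparc, while Gata6, Sox17, Sox7 and Foxa2 were not fitted. Gata4 passed the filter of the fit only through KO (1.95 and 2.11, against at most 0.824 in het and the mutant add-back). In the mutant add-back against KO the medians of these lists were -0.64 and -0.92. What other cells contribute to the levels of the members was not tested.

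Pathway genes around the members had smaller median changes than the members. Members and lists were chosen with earlier results of these data known, so this comparison is a description only. For KO against het, 14 of 20 actin and serum response factor genes were above 0 (median log2 change 0.12), 14 of the 15 fitted TGF-beta pathway genes (0.41), 8 of 12 YAP and TEAD pathway genes (0.28) and 6 of 11 collagen processing genes (0.25), beside 0.00 over all genes. None of these genes passed the adjusted test, and 2, 2, 4 and 3 of them had an unadjusted p under 0.05, beside 4.41% of all genes higher and 5.21% lower. For the mutant add-back against KO, 15 of 20, 13 of 15, 9 of 12 and 10 of 11 were below 0, with medians of -0.37, -0.44, -0.40 and -0.32. The collagen chaperone Serpinh1 was at 40.8 and 14.4 in het, 71.9 and 44.1 in KO, 23.1 and 15.5 in the mutant add-back, 31.8 in the wild-type add-back, and 86.8 and 112 in the DKO pair.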

How the data were processed

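RNA-seq tables of 12 of the 80 samples were used, and the other 68 were not analysed here. The deposited FPKM values (per the file headers) cover the replicate 1 libraries, the single libraries and TT2, and the deposited RPKM values cover every replicate 2. The submitters' processing notes name mm9, TopHat, Bowtie 0.12.7, SAMtools and MACS 1.4.2, with no role for each. Depth is not known from these units, so no counting interval is given.

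The members and lists were chosen with earlier results of these data known. Entries of 1 symbol were summed, and Ctgf and Cyr61 were matched in RefSeq through their synonyms. Values were scaled by the median ratio, 1 was added and log2 taken, so folds of low genes are understated. The 6 libraries of the replicated groups were fitted with limma 3.58.1 (R 4.3.3, trend), modelling group plus replicate, over genes listed in all 6 and at 1 or more in at least 2. Tests are two-sided, with Benjamini-Hochberg adjustment at 0.05 over all genes. Pairs of single libraries were scaled by themselves, with a minimum of 5 and a limit of 2-fold. Fit and ratios were tested on simulated data. Named by rule were Vim, Cdh1, Cdh2 and up to 2 members of each other role with the highest median, 25 genes. Another 9, Zeb1, Zeb2, Snai2, Tagln, Acta2, Col1a2, Anxa1, Anxa3 and S100a4, were chosen after their values were seen, as were the further members given single values. Alternatives were a pseudocount of 0.1, no filter or a minimum of 1, no scaling, no replicate term, and leaving out each library. Ratios and plots were made in Python 3.11.15 (numpy 2.4.6, pandas 2.3.3) with matplotlib 3.10.9.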

Additional observations from a re-analysis of the deposited data

How the results depend on the processing

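For KO against het, 1 gene, not a member, passed with a pseudocount of 0.1, 1 with values as deposited and 1 with no replicate block, beside 0 otherwise, and leaving out 1 library gave 0 to 23. The replicate number coincides with the unit of the tables, and same-number correlations were 0.58 (het and KO), 0.11 (het and mutant add-back) and 0.06 (KO and mutant add-back). For the mutant add-back against KO, leaving out 1 library gave 0 to 768 calls, and with no replicate block 0 genes passed. With a minimum of 1 or no filter, 2 members in place of 1 were more than 2-fold higher in the mutant add-back against KO in replicate 1. Unscaled, the median over all genes was -0.28 in that comparison and the members' median -1.24.

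Leaving out 1 library reversed some KO against het changes, with ranges of -0.30 to 1.32 for Twist1, -0.37 to 0.49 for Timp1, -0.07 to 0.32 for Timp2, -0.39 to 1.74 for Cyr61, -0.43 to 0.92 for Tagln, -0.88 to 0.21 for Cnn2, -1.02 to 0.84 for Ctgf, -0.62 to 0.26 for S100a6, -1.08 to 2.01 for Cryab, -0.17 to 0.99 for Thbs1 and -0.88 to 0.02 for Zeb1. For the mutant add-back against KO the ranges that crossed 0 were -0.28 to 0.16 for Fn1, -0.79 to 0.11 for Zeb1, -0.77 to 0.04 for Col1a2 and -0.09 to 0.95 for Timp1. A group left with 1 library is assumed to vary like the others, and the cause of these shifts was not tested.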
